A study of Mus musculus with 18 samples.

Results

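The chemokine ligands described here are 6 genes, *Ccl22*, *Ccl17*, *Ccl3*, *Ccl4*, *Ccl5* and *Cxcl10*, of the 51912 genes in the table. They were listed by name, and each symbol was matched to 1 Ensembl identifier through the GENCODE M21 annotation of GRCm38. The level of each gene in B cells taken directly from the mouse, and its response to CD40L, were compared in both genotypes.

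RNA was sequenced from 18 samples of B cells of C57BL/6 mice, in 6 groups of 3 biological replicates from littermates. The genotypes were wild-type (WT) and *Sh3gl1*-/-, a germline knockout of endophilin A2, so every tissue of the mutant mouse carries it and not only its B cells. In each genotype, transitional B cells (recently formed cells) and follicular B cells (mature recirculating cells) were sorted and lysed *ex vivo*, and follicular B cells were also cultured with CD40L, the T-cell ligand of CD40, for 14 h by the labels. The ages of these mice are not given in the sources used here, and a culture without CD40L was not analysed here, so that the effects of CD40L and of culture cannot be told apart.

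Chemokines are small secreted proteins that direct cell migration through G protein-coupled receptors. CCL22 and CCL17 are the ligands of CCR4, a receptor of helper and regulatory T cells, and activated B cells and dendritic cells use them to attract such cells. CCL3, CCL4 and CCL5 act through receptors of the CC family, among them CCR1 and CCR3, and are made in quantity by cytotoxic T cells, NK cells and myeloid cells, while CXCL10 is an interferon-inducible ligand of CXCR3.

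Total counts per library ranged from 12404688 to 18366078, and 3 counts, taken as the detection floor for counting error only, equalled 0.163 to 0.242 CPM (counts scaled to library size). The targeted gene *Sh3gl1* had between 29.7 and 57.9 CPM in the 9 WT libraries and between 0.07 and 1.76 CPM in the 9 *Sh3gl1*-/- libraries. All 8 B-cell markers of the list used (such as *Cd79a* and *Pax5*) were detected in every group, and their summed level lay between 9201 and 19554 CPM. All 4 transitional markers (such as *Cd93*) were higher and all 4 follicular markers (such as *Cr2*) lower in transitional than in follicular cells of both genotypes. *Xist*, transcribed from the inactive X chromosome, was high in 1 library of each group, replicate 3 in WT and replicate 2 in *Sh3gl1*-/-, so each group held libraries of both sexes. Markers of other cell types were present in the sorted cells at levels that differed between groups. The 4 plasma-cell markers summed to 428 to 669 CPM in transitional WT cells. In transitional *Sh3gl1*-/- cells they summed to 1085 to 4562 CPM, without overlap. The 9 macrophage markers summed to 540 to 657 CPM in transitional WT and 501 to 885 CPM in transitional *Sh3gl1*-/- cells. Markers of T cells, NK cells, neutrophils, dendritic cells and macrophages are given beside results below.

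The members lie at 3 loci. *Ccl22* (ENSMUSG00000031779, chr8:94745590-94751699, plus strand) and *Ccl17* (ENSMUSG00000031780, chr8:94810453-94812036, plus strand) are neighbours, with *Cx3cl1* between them and 58.8 kb from the end of *Ccl22* to the start of *Ccl17*. *Ccl5* (ENSMUSG00000035042, chr11:83525778-83530518, minus strand), *Ccl3* (ENSMUSG00000000982, chr11:83647844-83649355, minus strand) and *Ccl4* (ENSMUSG00000018930, chr11:83662584-83664683, plus strand) share a cluster, where *Ccl3* and *Ccl4* are 13.2 kb apart. *Cxcl10* (ENSMUSG00000034855, chr5:92346638-92348889, minus strand) lies apart from both.

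The sequences directly upstream of the genes are shown because the members' responses to CD40L, whose receptor signals to NF-kB, ranged from a rise to a fall, and because interferon-inducible genes carry known elements there. RefSeq (GRCm38.p6) gave a sequence for 4 of the 6 genes, and *Ccl4* and *Ccl5* had no entry. Each is written 5′ to 3′ on the strand of its gene. Capitals mark matches, on either strand, to the NF-kB consensus, to GAAANNGAA (interferon-type element) or to TTCNNNGAA (GAS element).
Ccl22, chr8:94745434-94745589, plus strand: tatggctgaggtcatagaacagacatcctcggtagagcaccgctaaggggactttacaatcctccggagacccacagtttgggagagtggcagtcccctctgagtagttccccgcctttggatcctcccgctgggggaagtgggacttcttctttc
Ccl17, chr8:94810203-94810452, plus strand: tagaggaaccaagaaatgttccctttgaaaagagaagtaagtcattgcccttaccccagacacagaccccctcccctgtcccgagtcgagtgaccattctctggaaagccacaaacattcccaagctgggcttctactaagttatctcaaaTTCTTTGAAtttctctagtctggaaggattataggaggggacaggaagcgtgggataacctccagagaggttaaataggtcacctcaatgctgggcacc
Ccl3, chr11:83649379-83649628, minus strand: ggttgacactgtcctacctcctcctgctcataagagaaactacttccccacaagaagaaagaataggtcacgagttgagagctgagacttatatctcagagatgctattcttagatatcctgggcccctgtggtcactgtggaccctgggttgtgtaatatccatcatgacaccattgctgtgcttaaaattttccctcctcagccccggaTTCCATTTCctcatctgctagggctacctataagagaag
Cxcl10, chr5:92348890-92349139, minus strand: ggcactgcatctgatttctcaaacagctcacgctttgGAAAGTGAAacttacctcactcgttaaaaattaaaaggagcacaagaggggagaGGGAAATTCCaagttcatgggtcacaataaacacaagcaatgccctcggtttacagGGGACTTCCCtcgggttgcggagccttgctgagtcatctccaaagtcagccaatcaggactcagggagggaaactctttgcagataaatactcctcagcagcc

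*Cxcl10* held 1 interferon-type match and 2 NF-kB matches, *Ccl17* held 1 GAS match, and *Ccl3* held 1 interferon-type match on the strand opposite to the gene. The *Ccl22* sequence, 156 bases where the others have 250, held no match to any of the 3. Among 32841 upstream regions of 250 bases, 3.90% held an NF-kB match, 7.13% an interferon-type match and 7.02% a GAS match. The matches describe the letters in these windows and do not show binding.

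*Ccl22* had the largest log2 fold change of the 5 genes tested. In WT follicular cells *ex vivo* it had 0.65, 1.17 and 0.23 CPM in the 3 libraries, and after CD40L culture 170, 167 and 400 CPM. In *Sh3gl1*-/- cells the *ex vivo* values were 0.45, 0.19 and 0.14 CPM, and the values after culture 185, 117 and 278 CPM. The cultured and *ex vivo* groups did not overlap in either genotype, whereas the cultured groups of the genotypes overlapped each other. Of all tested genes, 49.3% in WT and 42.4% in *Sh3gl1*-/- cells were called in this comparison. Groups without overlap between culture and *ex vivo* are therefore no result by themselves, here and for the other members.

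The log2 fold change of *Ccl22* was 8.40 in WT (SE 0.55, edgeR adjusted p = 4.77e-08) and 9.49 in *Sh3gl1*-/- cells (SE 0.61, edgeR adjusted p = 5.16e-08). Among the 14460 genes tested, this ranked 4th from the highest in WT and 1st in *Sh3gl1*-/- cells. The *ex vivo* counts behind these folds were low, between 2 and 19 per library, and the fold change ranged over 7.49 to 9.07 in WT and 9.17 to 10.1 in *Sh3gl1*-/- cells under the alternatives. The response was 1.10 log2 units higher in *Sh3gl1*-/- than in WT cells, with a 95% confidence interval from -1.08 to 3.28 and an edgeR adjusted p of 0.797. On the TPM scale, which allows genes of different length to be compared, the mean level of *Ccl22* after culture was 121 ± 64.3 TPM (SD, n = 3) in WT and 102 ± 45.7 TPM (SD, n = 3) in *Sh3gl1*-/- cells, which placed it 1220th and 1378th among more than 21000 genes with a TPM above 0.

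**Figure D1:**
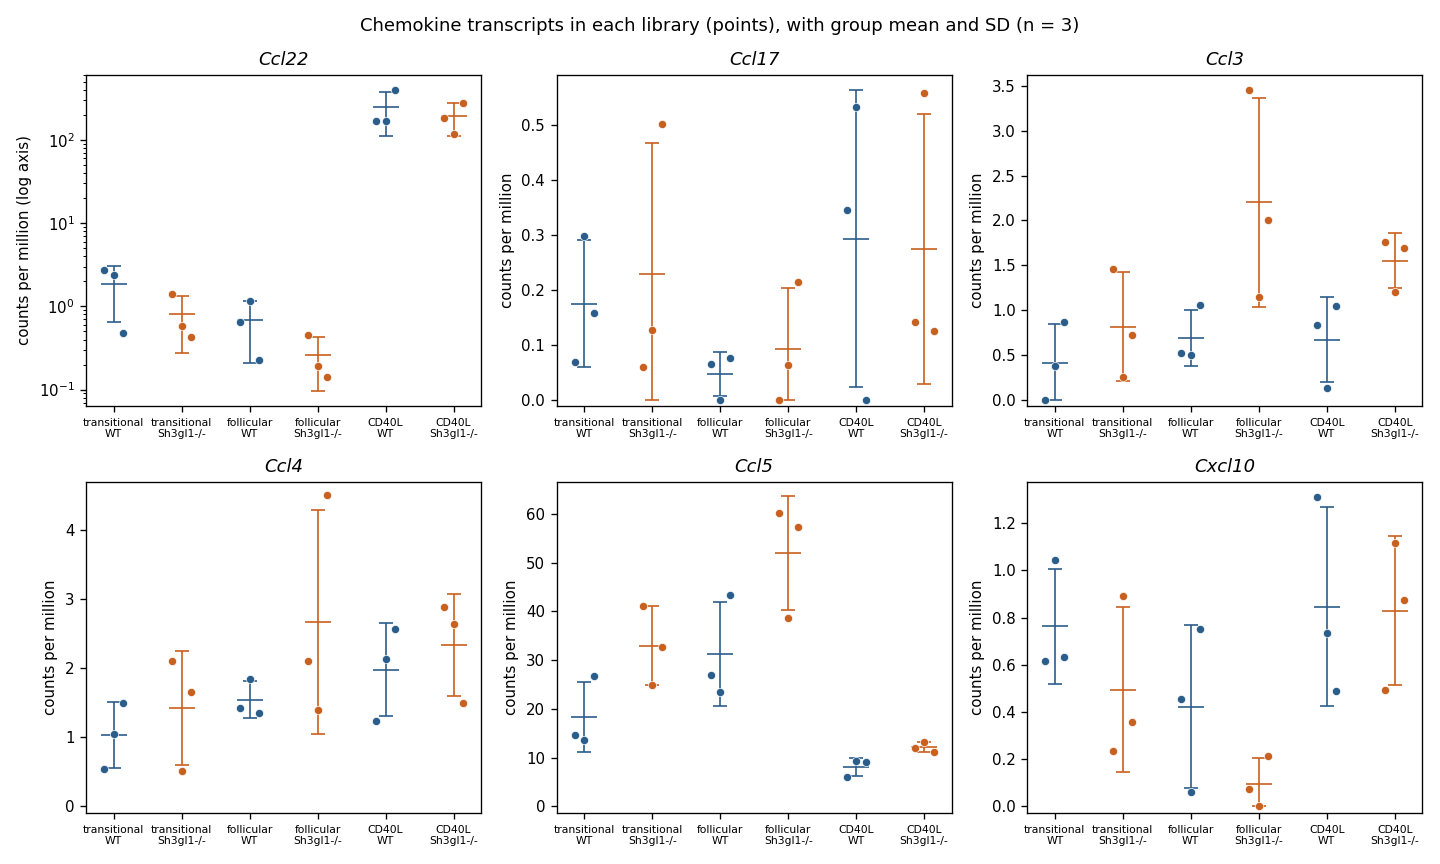
Level of the 6 chemokine transcripts in CPM (y axis, logarithmic for Ccl22 and linear for the other genes) in the 6 groups (x axis). Points are libraries, blue for WT and orange for Sh3gl1-/-, and bars show the mean and SD (n = 3) and are cut at 0: Ccl22 lies above 100 CPM only after CD40L culture, and Ccl5 is lowest there.

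CCL22 is also made by dendritic cells and macrophages, and so their markers were read in the same libraries. Of 9 dendritic-cell markers 7 were tested, and after culture in WT cells 1 was higher and 4 were lower, with a summed level between 18.7 and 25.1 CPM *ex vivo* and between 29.4 and 40.8 CPM after culture. The gene that was higher was *Zbtb46* (4.89 ± 1.11 and 23.9 ± 5.46 CPM, SD, n = 3), while *Itgax* and *Clec9a* were at 0 counts in all 3 cultured WT libraries. Of 9 macrophage markers 7 were tested, and 1 was higher and 4 were lower, with a summed level between 118 and 151 CPM *ex vivo* and between 66.1 and 96.8 CPM after culture. *Adgre1* was the higher gene, and *C1qa*, *C1qc* and *Mertk* were at 0 counts in all 3 cultured WT libraries. In *Sh3gl1*-/- cells 2 dendritic-cell markers were higher, *Zbtb46* and *Flt3*, and 4 were lower, and the summed level went from 21.9-34.5 to 35.1-39.4 CPM, with *Clec10a* at 0 in all 3 cultured libraries. In the same cells 1 macrophage marker was higher and 5 were lower, and the summed level went from 124-282 to 47.5-77.6 CPM, with *C1qc* and *Mertk* at 0. The summed dendritic-cell markers were thus higher in cultured than in *ex vivo* libraries of both genotypes, without overlap, while the macrophage sum was lower. Gene by gene, the tested dendritic-cell markers were mostly lower, with a median log2 fold change of -2.31 in WT and -3.17 in *Sh3gl1*-/- cells. In WT *Zbtb46* was the only 1 called higher. The part of RNA of these cell types in the rise of *Ccl22* was not tested.

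*Ccl17*, the other ligand of CCR4, stayed near the detection limit. Its highest count in any library was 8, and it did not pass the filter on low counts, so it was not tested with that filter. The WT libraries had 1, 0 and 1 counts *ex vivo* and 5, 8 and 0 after CD40L culture, and the *Sh3gl1*-/- libraries had 0, 1 and 3 counts *ex vivo* and 2, 7 and 2 after culture. Cultured and *ex vivo* groups overlapped in both genotypes. *Cx3cl1*, the gene between *Ccl22* and *Ccl17*, had at most 13 counts and was not tested either.

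The neighbours of *Ccl22* were looked up after its values had been seen. Of 13 other genes within 200 kb of *Ccl22*, 9 were tested. In WT cells 4 were called higher and 2 lower after CD40L culture, and in *Sh3gl1*-/- cells 4 were higher and 1 lower. Of all tested genes, 23.6% were called higher and 25.7% lower in WT, and 20.6% and 21.8% in *Sh3gl1*-/- cells. Their log2 fold changes ranged from -3.69 to 4.26 in WT and from -2.92 to 1.01 in *Sh3gl1*-/- cells. The upper end in WT was *Cpne2*, which had at most 19 counts in any library.

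Of the 5 members that could be tested, *Ccl22* and *Ccl5* passed the test in WT cells, 1 higher and 1 lower, in a comparison in which 49.3% of all tested genes were called, 23.6% higher and 25.7% lower. In *Sh3gl1*-/- cells *Ccl22*, *Ccl5* and *Cxcl10* passed, 2 higher and 1 lower, where 42.4% of all tested genes were called, 20.6% higher and 21.8% lower. Shares of 2 and 3 of 5 members are near this background and are no result about the members. The same shares of all tested genes are the background for the counts of every other list in the CD40L response. The median log2 fold change of the 5 was 0.33 in WT and -0.21 in *Sh3gl1*-/- cells, against -0.08 and -0.03 over all genes.

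*Ccl5* was the most abundant member *ex vivo* and fell in culture. WT follicular cells had 26.9, 23.4 and 43.4 CPM *ex vivo* and 6.00, 9.22 and 9.17 CPM after CD40L culture. *Sh3gl1*-/- follicular cells had 60.2, 38.6 and 57.2 CPM *ex vivo* and 12, 13.2 and 11.1 CPM after culture. Every cultured library was below every *ex vivo* library of its genotype. The log2 fold change was -1.96 in WT (SE 0.25, edgeR adjusted p = 2.32e-05) and -2.12 in *Sh3gl1*-/- cells (SE 0.25, edgeR adjusted p = 1.39e-05), and the responses differed by -0.16 (95% confidence interval -0.90 to 0.59, edgeR adjusted p = 0.930).

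Transcripts of T cells, NK cells and neutrophils moved with *Ccl5*. In bulk samples fewer cells of a type and less RNA per cell cannot be told apart. Of 8 T-cell markers, 7 were lower after CD40L culture in each genotype and none was higher, and their summed level went from 75.8-103 to 22.9-24.8 CPM in WT and from 145-184 to 30.2-40.01 CPM in *Sh3gl1*-/- cells, with no marker at 0 in all libraries of a group. Of 8 NK-cell markers, all 8 were lower in each genotype, and their summed level went from 43.2-102 to 5.11-9.17 CPM in WT and from 75.5-106 to 5.22-7.58 CPM in *Sh3gl1*-/- cells, where *Gzmb* was at 0 in all cultured libraries of both genotypes. The ratio of *Ccl5* to the summed T-cell markers lay between 0.25 and 0.42 *ex vivo* and between 0.25 and 0.40 after culture in WT cells, and between 0.27 and 0.33 *ex vivo* and between 0.32 and 0.37 after culture in *Sh3gl1*-/- cells. The ratio to the summed NK-cell markers was 0.42 to 0.54 *ex vivo* and 1.0 to 1.39 after culture in WT cells, and 0.51 to 0.60 and 1.47 to 2.30 in *Sh3gl1*-/- cells, without overlap. Neutrophil markers were lower after culture as well, 5 of 6 tested in WT and 6 of 6 in *Sh3gl1*-/- cells, and the summed level of the 7 listed went from 44.6-105 to 5.75-29.04 CPM in WT, with *Ly6g* at 0 in both groups, and from 108-508 to 30.2-110.3 CPM in *Sh3gl1*-/- cells, where the groups overlapped. The part of T-cell, NK-cell and neutrophil RNA in the fall of *Ccl5* was not tested.

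Across all 18 libraries the 3 genes whose log2 CPM was most like that of *Ccl5*, among 15117 genes, were *Cd3g* (Pearson's r = 0.96), *Cd3d* (r = 0.96) and *Trbc2* (r = 0.95), components of the T-cell receptor complex. The 18 points share 6 groups, so these correlations describe differences between groups as well as between libraries. For *Ccl22* the most similar were *Gm37795* (r = 0.98), *Arpc4* (r = 0.98) and *Pqlc1* (r = 0.98), where the 6 cultured libraries lie far from the others. For *Cxcl10* they were *Rasd1* (r = 0.83), *Ly6d* and *Prss36*.

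**Figure D2:**
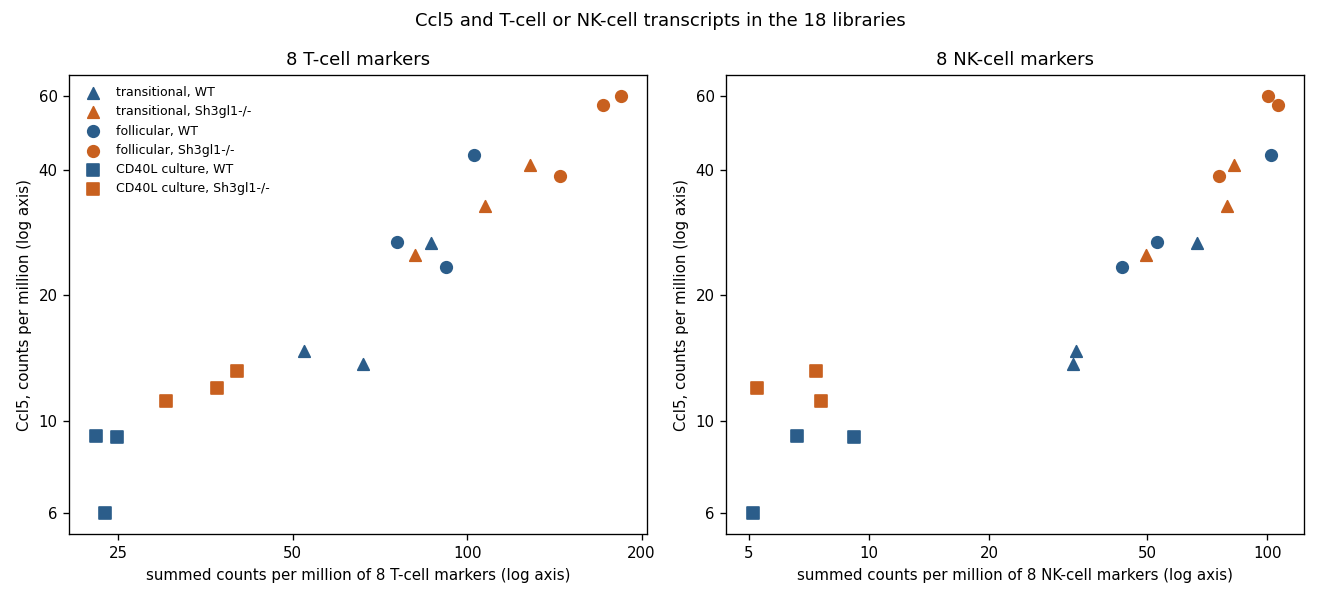
Ccl5 in CPM (y axis) against the summed CPM of 8 T-cell markers (x axis, left) or 8 NK-cell markers (x axis, right) in the 18 libraries, all axes logarithmic; colours give the genotype and shapes the cell state. Ccl5 is between 0.21 and 0.42 of the T-cell sum in all 18 libraries, while the 6 CD40L libraries have a higher ratio to the NK-cell sum (1.0 to 2.30) than the ex vivo libraries (0.40 to 0.60).

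*Ccl3* and *Ccl4* were low in every group and did not pass the test for a response to CD40L. *Ccl3* had 0.52, 0.49 and 1.05 CPM in WT follicular cells *ex vivo* and 0.83, 0.13 and 1.04 CPM after culture, with overlapping groups. In *Sh3gl1*-/- cells it had 3.45, 1.15 and 2.0 CPM *ex vivo* and 1.76, 1.20 and 1.69 CPM after culture, again with overlap. The log2 fold change of *Ccl3* was -0.05 in WT (SE 0.66, 95% confidence interval -1.46 to 1.36, edgeR adjusted p = 0.957) and -0.51 in *Sh3gl1*-/- cells (SE 0.59, 95% confidence interval -1.78 to 0.76, edgeR adjusted p = 0.516).

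*Ccl4* had 1.43, 1.85 and 1.35 CPM in WT follicular cells *ex vivo* and 1.24, 2.14 and 2.57 CPM after culture. The *Sh3gl1*-/- cells had 2.10, 1.40 and 4.51 CPM *ex vivo* and 2.89, 2.63 and 1.5 CPM after culture. Groups overlapped in both genotypes, and the log2 fold changes were 0.33 (SE 0.47) and -0.21 (SE 0.46). The 95% confidence intervals of *Ccl4* ran from -0.68 to 1.34 and from -1.20 to 0.78. The genes most like *Ccl3* over the 18 libraries were *Cst7* (r = 0.91, known from cytotoxic lymphocytes), *Pfkfb1* and *Reck*, and for *Ccl4* they were *Olfr77* (r = 0.80), *Smagp* and *Slc25a33*.

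*Cxcl10* had few reads in all groups. WT follicular cells had 7, 1 and 10 counts *ex vivo* and 19, 11 and 8 after CD40L culture, and the groups overlapped. *Sh3gl1*-/- follicular cells had 1, 0 and 3 counts *ex vivo* and 7, 14 and 14 after culture, without overlap. The response passed the test in *Sh3gl1*-/- cells (edgeR adjusted p = 0.0232) and not in WT cells, where the log2 fold change was 0.98 (SE 0.81, edgeR adjusted p = 0.334). All 3 *ex vivo* *Sh3gl1*-/- libraries were at or under the floor of 3 counts per library. The mean after culture, 0.83 CPM, was 3.68 times the highest value of that floor, 0.225 CPM. The lowest cultured *Sh3gl1*-/- library had 0.49 CPM. The fitted log2 fold change was 3.01 (SE 0.97, 95% confidence interval 0.92 to 5.10). The difference between the genotypes in this response did not pass the test (2.03, SE 1.27, 95% confidence interval -0.70 to 4.76, edgeR adjusted p = 0.672). The *Sh3gl1*-/- call rested on few reads: it was lost without follicular replicate 1 or 2 (adjusted p = 0.0732 and 0.0790) and without CD40L replicate 2 or 3 (adjusted p = 0.0627 and 0.0519), and in the libraries with low *Xist* alone (adjusted p = 0.160). Of the transcript sequence of *Cxcl10*, 3.585% of all stretches of 50 bases also occur in transcripts of *Art3*, while no stretch of the other members was shared with another gene.

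**Figure D3:**
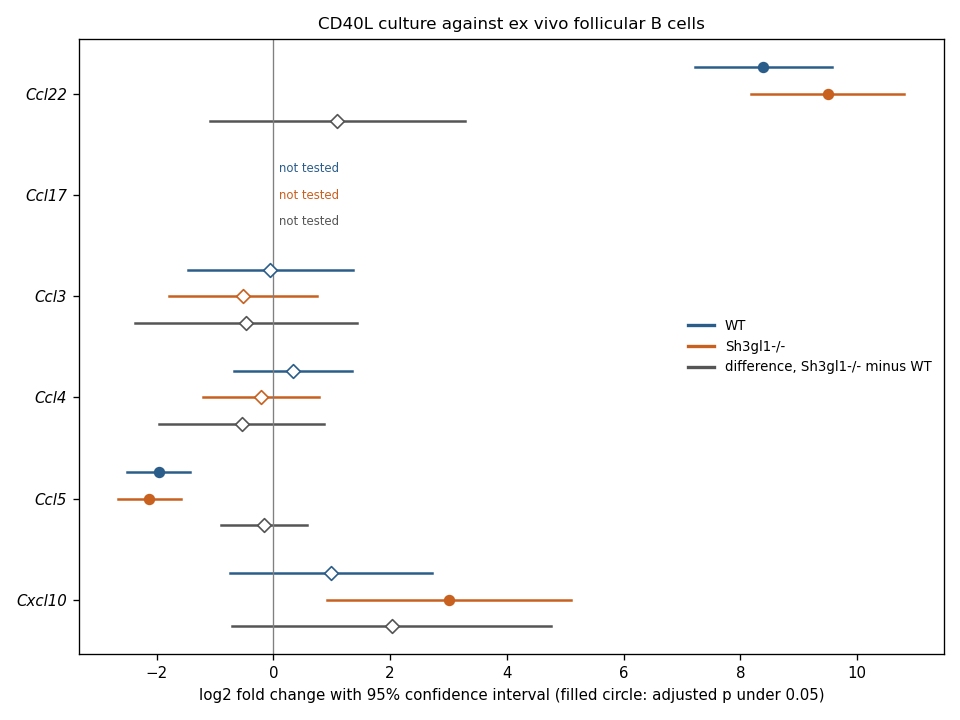
Log2 fold change (x axis) of each member (y axis) in CD40L culture against ex vivo follicular cells in WT (blue) and Sh3gl1-/- cells (orange), and the difference between these responses (grey), with 95% confidence intervals. Filled circles mark an adjusted p under 0.05: Ccl22 at 8.40 and 9.49, Ccl5 at -1.96 and -2.12 and Cxcl10 at 3.01 in Sh3gl1-/- cells, while all 5 differences between genotypes span 0.

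No difference between the genotypes in the CD40L response passed the test for any of the 5 members tested, in a comparison in which 0% of 14460 genes were called by edgeR, 1278 had an unadjusted p under 0.05 and DESeq2 called 29.

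Genes of the CD40 pathway, which signals to NF-kB, were read in the same libraries. All 16 genes of a list of CD40 signalling and NF-kB genes were tested, and 10 were higher and 2 lower after culture in WT cells, and their median log2 fold change was 0.50 against -0.08 over all genes. In *Sh3gl1*-/- cells 9 were higher and 1 lower, and the median was 0.42 against -0.03. Of all tested genes, 23.6% were called higher in WT and 20.6% in *Sh3gl1*-/- cells, and 25.7% and 21.8% lower. *Cd40*, the receptor itself, rose from 171 ± 10.6 to 432 ± 49.3 CPM (SD, n = 3) in WT and from 177 ± 11.7 to 387 ± 30.8 CPM (SD, n = 3) in *Sh3gl1*-/- cells. Ranked by p in WT, the list was led by *Traf1*, an adaptor of the CD40 receptor (3.89, SE 0.17, edgeR adjusted p = 1.55e-09), *Tnfaip3*, a feedback inhibitor of NF-kB (3.69, SE 0.23, edgeR adjusted p = 3.81e-08), and *Nfkbie*, an inhibitor that is itself an NF-kB target (1.77, SE 0.13, edgeR adjusted p = 2.07e-07). The log2 fold change of *Ccl22*, 8.40, was above that of each of these 3. It rested on low *ex vivo* WT counts (10, 19 and 3), so the order of these folds does not rank the strength of the responses.

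Interferon genes were read beside *Cxcl10*. Of 15 listed genes 13 were tested, and 10 were lower and none higher after culture in WT cells, with 9 lower and none higher in *Sh3gl1*-/- cells. The log2 fold changes in WT were -4.18 for *Irf7* (SE 0.39), -5.67 for *Ifit3* (SE 0.57) and -0.90 for *Irf1* (SE 0.10), while the value of *Cxcl10* was 0.98 (SE 0.81).

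The other chemokine ligands were mostly absent from these cells. Of 32 further ligand genes 8 passed the filter on low counts among the follicular and cultured libraries, and after CD40L culture none was higher, 3 were lower in WT cells (*Ccl6*, *Ppbp* and *Ccl9*) and 5 were lower in *Sh3gl1*-/- cells. *Ccl6*, a ligand made by myeloid cells, fell from 13.0 ± 3.30 to 0.43 ± 0.15 CPM (SD, n = 3) in WT cells. Among the ligands tested, *Ccl22* was therefore the gene that was higher after culture in both genotypes.

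The receptors of the 6 ligands were read as well, since B cells may respond to the ligands they make. *Ccr4*, the receptor of CCL22 and CCL17, had between 0 and 6 counts in every library and was not tested. Of the 8 listed receptors and processing genes, 6 were tested for the CD40L response, and 4 were lower in each genotype and none higher. These were *Dpp4*, a protease that trims chemokines (-1.46 in WT, SE 0.15), *Ccr3* (-3.85, SE 0.87), *Cxcr3* (-3.14, SE 0.73) and *Ackr2*, a scavenging receptor (-1.99, SE 0.58). *Ccr1* had a log2 fold change of 0.08 (SE 0.21). In the same WT comparison the median log2 fold change was -2.58 for T-cell, -3.75 for NK-cell and -2.31 for dendritic-cell markers. It was -4.08 for macrophage, -2.18 for neutrophil and -0.34 for B-cell markers. The part of RNA of other cell types in the lower receptor transcripts was not tested.

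Of 6 listed receptors and processing genes tested between the genotypes in follicular cells, *Ccr1* was the 1 called, against 0.845% of all tested genes. *Ackr2*, not called, was lower in *Sh3gl1*-/- cells in all 13 alternatives (-2.14 to -1.28) and called in 2 of them. *Cxcr3*, not called either, was higher in all 13 (0.49 to 1.41) and called in 1. For *Ccr1*, WT cells had 20.6, 16.9 and 14.7 CPM and *Sh3gl1*-/- cells had 32.1, 28.2 and 28.7 CPM, without overlap. The log2 fold change of *Ccr1* was 0.77 (SE 0.15, edgeR adjusted p = 0.0425), and it was past the threshold in 6 of 13 alternatives, all with the same direction. The call of *Ccr1* was lost without WT replicate 2 (adjusted p = 0.144) or 3 (0.106) and without *Sh3gl1*-/- replicate 1 (0.187), 2 (0.0670) or 3 (0.115). In transitional cells the log2 fold change was -0.13 (SE 0.11, edgeR adjusted p = 0.529), and the difference between these effects did not pass the test (-0.89, SE 0.18, edgeR adjusted p = 0.0913), and it was called in 3 of 20 alternatives, with the same sign in all 20 and adjusted p-values from 0.0015 to 0.414.

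Between the genotypes edgeR called no member in any of the 3 cell states. In follicular cells 3 members were tested and 0 called, against 0.845% of 13610 genes. After CD40L culture 5 members were tested and 0 called, against 0.0227% of 13188 genes. In transitional cells 4 members were tested and 0 called, against 3.73% of 13774 genes. At an unadjusted p under 0.05, *Ccl3* and *Ccl5* passed in follicular cells, *Ccl5* passed after culture and *Ccl5* passed in transitional cells. The share of all tested genes under that threshold was 10.9%, 7.07% and 21.8% in the same order.

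The mean of *Ccl5* was above WT in *Sh3gl1*-/- cells in all 3 states. Within a genotype, *Xist* was high at the same replicate number in every state, so the states may share mice. The 3 states are therefore not taken as independent comparisons. Transitional WT cells had 14.7, 13.7 and 26.7 CPM and transitional *Sh3gl1*-/- cells 41.1, 24.9 and 32.7 CPM, with overlap. The follicular groups overlapped as well, through WT replicate 3 and *Sh3gl1*-/- replicate 2, and the cultured groups did not. The log2 difference was 0.85 in transitional cells (SE 0.27, 95% confidence interval 0.25 to 1.44, edgeR adjusted p = 0.106), 0.74 in follicular cells (SE 0.23, interval 0.24 to 1.23, edgeR adjusted p = 0.214) and 0.60 after culture (SE 0.23, interval 0.08 to 1.12, edgeR adjusted p = 0.664). Whether this passed depended on the setting. In follicular cells it was called by DESeq2 (adjusted p = 0.0191), with all genes that had at least 1 count (3.59e-06) and without WT replicate 3 (1.04, adjusted p = 0.0391). An edgeR fit blocked on replicate number called it too (adjusted p = 0.0396). That block pairs same-numbered follicular samples of the genotypes, which did not deviate together (r from -0.05 to 0.03). In transitional cells DESeq2 (adjusted p = 0.0163), all genes with at least 1 count (0.000203) and the fit without WT replicate 3 (1.21, adjusted p = 0.0391) called it.

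In the libraries with low *Xist*, 2 in each group, the difference was 1.23 in follicular cells (edgeR adjusted p = 0.00225). It was 1.38 in transitional cells (edgeR adjusted p = 0.0147) and 0.62 after culture (edgeR adjusted p = 0.991). This split, added after the data were seen, left out the highest WT and the lowest *Sh3gl1*-/- library of *Ccl5* in both *ex vivo* states. The larger *ex vivo* differences and smaller p-values follow from that choice of libraries and are no separate support for a genotype difference. The libraries with high *Xist* hold 1 sample a group and give no test: *Ccl5* was at 43.4 CPM in WT and 38.6 CPM in *Sh3gl1*-/- follicular cells, and at 26.7 and 24.9 CPM in transitional cells, so that *ex vivo* the *Sh3gl1*-/- value was the lower of the pair, and at 9.17 and 13.2 CPM after culture, where it was the higher.

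T-cell transcripts were read beside *Ccl5*, and the log2 ratios of the summed 8 markers, *Sh3gl1*-/- to WT, were 0.89 in follicular cells, 0.59 after culture and 0.63 in transitional cells. The genotypes overlapped in transitional cells and not in the other states. In follicular cells 2 of the 8 were called, both higher (*Cd3e* at 1.37, SE 0.17, and *Cd3d* at 0.87, SE 0.17), while 0 of 6 tested were called after culture and 0 of 8 in transitional cells. The log2 ratios of the NK-cell sum were 0.51, -0.05 and 0.68 in the same order, and those of 7 neutrophil markers were 1.97, 1.88 and 1.92, without overlap in any state, though 0 of 6, 0 of 4 and 1 of 6 tested neutrophil markers were called. *Sh3gl1*-/- replicate 1 was the highest library in each state, and without it the neutrophil ratios were 1.08, 0.97 and 0.94. The log2 ratios of the dendritic-cell sum were 0.34, 0.14 and 0.85 in the same order, without overlap only in transitional cells. Those of the macrophage sum were 0.69, -0.44 and 0.26, with overlap in each state. Those of the plasma-cell sum were 0.55, 0.09 and 2.31, with overlap only after culture. The sum of the 8 B-cell markers was lower in *Sh3gl1*-/- cells, with log2 ratios of -0.14, -0.12 and -0.31 and overlap only in transitional cells. Of these 8 markers, 0 were called in each state. The ratio of *Ccl5* to the T-cell sum overlapped between the genotypes in all 3 states. Its ratio to the NK-cell sum overlapped in follicular and transitional cells and not after culture (1.0 to 1.39 in WT, 1.47 to 2.30 in *Sh3gl1*-/- cells). The part of RNA of these cell types in the difference of *Ccl5* was not tested.

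*Ccl3* had values without overlap between the genotypes in follicular cells and after culture, as *Ccl5* did after culture. That is 1 of 3 members tested in follicular cells, where the groups of 16% of all tested genes did not overlap, and 2 of 5 after culture, where 13.8% did not. The log2 difference of *Ccl3* was 1.67 in follicular cells (SE 0.56, 95% confidence interval 0.45 to 2.90, edgeR adjusted p = 0.257), 1.23 after culture (SE 0.62, interval -0.15 to 2.62, edgeR adjusted p = 0.728) and 1.01 in transitional cells (SE 0.96, interval -1.15 to 3.17, edgeR adjusted p = 0.582). In each state the *Sh3gl1*-/- mean was higher, and in no alternative was *Ccl3* called. *Ccl4* had log2 differences of 0.78 (SE 0.48), 0.26 (SE 0.42) and 0.48 (SE 0.60) in follicular, cultured and transitional cells.

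The level of *Ccl22* after CD40L culture overlapped between the genotypes. The log2 difference of *Sh3gl1*-/- from WT was -0.31 (SE 0.37), with a 95% confidence interval from -1.14 to 0.52 and an edgeR adjusted p of 0.848. *Ex vivo*, the *Ccl22* groups of the genotypes overlapped, with 10, 19 and 3 counts in WT and 6, 3 and 2 in *Sh3gl1*-/- follicular cells, and 40, 32 and 6 and 24, 9 and 6 in transitional cells. It was not tested in follicular cells, and the log2 difference in transitional cells was -1.19 (SE 0.68, edgeR adjusted p = 0.349). *Cxcl10* after culture had a difference of 0.00 (SE 0.56, 95% confidence interval -1.25 to 1.26).

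**Figure D4:**
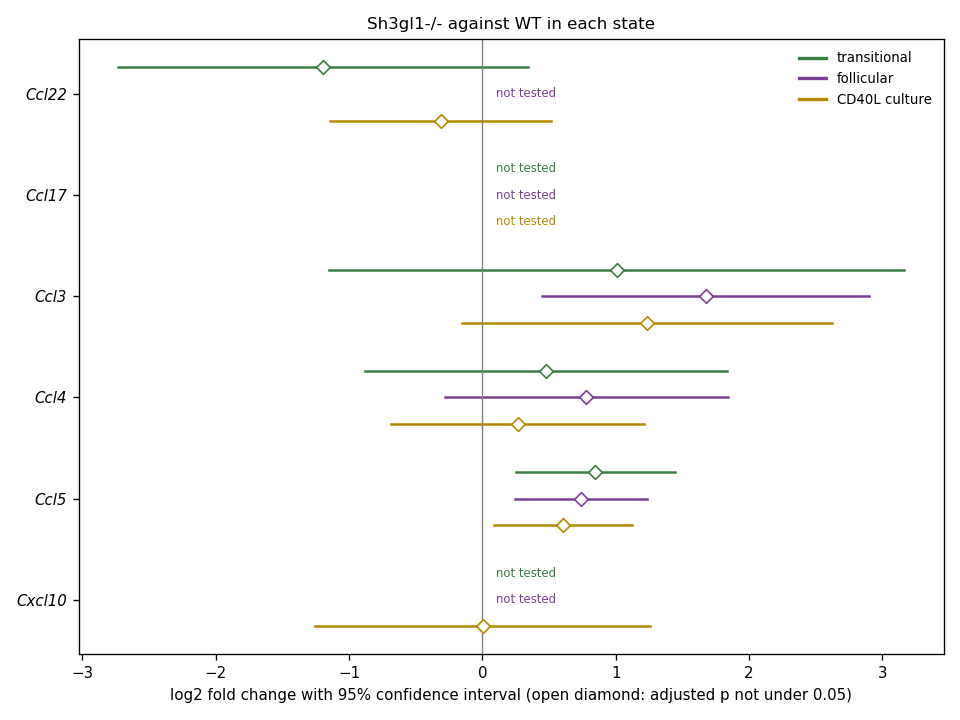
Log2 fold change of Sh3gl1-/- against WT (x axis) for each member (y axis) in transitional (green), follicular (purple) and CD40L-cultured cells (yellow), with 95% confidence intervals; all diamonds are open, since no adjusted p was under 0.05. Ccl3, Ccl4 and Ccl5 lie to the right of 0 in all 3 states. The intervals of Ccl5 lie above 0 (0.25 to 1.44, 0.24 to 1.23 and 0.08 to 1.12). The states may share mice and may not be independent.

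Transitional cells were compared with follicular cells as a second basal state. None of 5 members was called in WT, against 25.9% of 14580 genes, or in *Sh3gl1*-/- cells, against 10.4%. *Ccl5* had log2 differences, transitional minus follicular, of -0.77 in WT (SE 0.29, edgeR adjusted p = 0.0613) and -0.65 in *Sh3gl1*-/- cells (SE 0.28, edgeR adjusted p = 0.169). It was called in WT without transitional replicate 3 (-1.14, adjusted p = 0.0123) or follicular replicate 2 (-0.94, adjusted p = 0.0435). Same-numbered samples deviated together here, and blocked on that number *Ccl5* was called in WT (-0.78, adjusted p = 0.0104) and in *Sh3gl1*-/- cells (-0.64, adjusted p = 0.0431). With the block set within each genotype the adjusted p-values were 0.000308 and 0.00129. The T-cell sum was also lower in transitional cells, with log2 ratios of -0.40 in WT, where the groups overlapped, and -0.66 in *Sh3gl1*-/- cells, where they did not.

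*Ccl22* had log2 differences of 1.42 in WT (SE 0.73, edgeR adjusted p = 0.175) and 1.63 in *Sh3gl1*-/- cells (SE 0.83, edgeR adjusted p = 0.258) between transitional and follicular cells. All 9 macrophage markers were higher in transitional WT cells, with a summed level between 540 and 657 CPM against 118 to 151 CPM in follicular cells, and 8 of 9 were higher in *Sh3gl1*-/- cells. *Cxcl10* did not overlap between the *Sh3gl1*-/- groups, with 4, 14 and 5 counts in transitional cells, and its log2 difference was 2.30 (SE 1.03, edgeR adjusted p = 0.187), where the groups of 30.5% of all genes did not overlap. Whether the genotypes differed more in 1 basal state than in the other was compared after the data were seen, and this passed for 0 of 5 members (against 0.0686% of all genes), and for *Ccl5* the difference of effects was 0.13 (SE 0.40, edgeR adjusted p = 0.924).

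In the order of mean levels over the 6 groups, *Ccl22* was highest after CD40L culture in WT and then in *Sh3gl1*-/- cells, which overlapped, followed without overlap by transitional WT cells, and all lower neighbours overlapped. *Ccl5* was highest in follicular *Sh3gl1*-/- cells, followed by transitional *Sh3gl1*-/-, follicular WT and transitional WT cells, with overlap at each step, and the CD40L groups, *Sh3gl1*-/- above WT, lay below without overlap. For *Ccl17*, *Ccl3* and *Ccl4* all neighbours in the order overlapped. On the TPM scale *Ccl5* was the most abundant member in the 4 *ex vivo* groups, with means between 50.9 and 134 TPM, and *Ccl22* in the 2 cultured groups, while *Ccl17*, *Ccl3*, *Ccl4* and *Cxcl10* had group means of at most 5.29 TPM.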

How the data were processed

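The authors deposited expected counts, TPM and FPKM per gene, estimated with RSEM, for 18 RNA libraries. The submitters' processing notes name cutadapt 1.9.1, STAR 2.5.2a and RSEM 1.3.0 on GRCm38, while the study's methods name TopHat and Cufflinks. The labels give 14 h of CD40L culture, the methods overnight and a legend of the study a longer time. Likewise the labels name a stranded KAPA kit and the methods SMART-Seq HT with Nextera XT. Whether counting used strand is not given in the sources used here. The deposited expected counts, not normalized for library size, were rounded to whole numbers. The deposited TPM values were used only to compare levels between genes, and the deposited FPKM values were not used.

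Genes passing filterByExpr were fitted with edgeR 4.0.16 in R 4.3.3 (TMM, glmQLFit, glmQLFTest), p-values were adjusted over all genes tested by the Benjamini-Hochberg method, and a gene was called under 0.05. CD40L responses were fitted on the 12 follicular and cultured libraries, genotypes within each state, and the basal states on the 12 *ex vivo* libraries. The SE is the log2 fold change divided by the square root of F. The design text calls the replicates biological and from littermates, and all 18 within-group pairs differed beyond sampling noise (chi-square per degree of freedom 9.25 to 47.8). Same-numbered libraries deviated together (every r over 0.1) between transitional and follicular cells of each genotype (0.10 to 0.26) and between follicular and cultured WT cells (0.14 to 0.22). Between follicular and cultured *Sh3gl1*-/- cells the r of same-numbered libraries were lower, 0.03 to 0.12, and not all over 0.1. They were still above those of unlike-numbered libraries there (-0.09 to 0.003). Between genotypes same-numbered libraries did not deviate together. Scripts were tested on simulated data. Alternatives were DESeq2 1.42.0, RLE factors, other filters, all libraries in 1 fit, blocks, each library left out and, added after the data were seen, libraries with low *Xist*, a block nested in genotype and the neighbouring genes. The members and gene lists were chosen with earlier results of these data known. Named are the members, *Sh3gl1*, *Cd40*, the members' receptors, per list up to 3 genes with the lowest adjusted p or needed to show markers at 0, and the 3 genes most correlated with a member. Genes named outside this rule were chosen after their values were seen. The result of 1 listed receptor is not reported here.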

Additional observations from a re-analysis of the deposited data

How the results depend on the processing

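The numbers of members called for the CD40L response (2 in WT, 3 in *Sh3gl1*-/- cells, 0 for the difference) stayed within 1.5 times under every alternative, and were 2 to 2, 2 to 3 and 0 to 0 when 1 library was left out. The number called was 1 in place of 0, *Ccl5* each time, for *Sh3gl1*-/- against WT in follicular cells under DESeq2, with all genes of at least 1 count, with the replicate block and with low *Xist* libraries only (0 to 1 with 1 library left out). It was also 1 in transitional cells under DESeq2, with all genes of at least 1 count and with low *Xist* libraries only (0 to 1), and 1 for transitional against follicular cells in WT (0 to 1 with 1 library left out) and in *Sh3gl1*-/- cells (0 to 0) with all genes of at least 1 count, with both forms of the replicate block and with low *Xist* libraries only. The replicate block changed no other call of a member. The difference of genotypes after CD40L culture turned to 0.47 for *Ccl22* with low *Xist* libraries only. For *Cxcl10* it turned to -0.018 (DESeq2), -0.016 (RLE), -0.0030 (all genes of at least 1 count), -0.0063 (10 counts in 3 libraries), -0.025 (all 18 libraries) and -0.55 (low *Xist* only). With 1 library left out, uncalled log2 values that changed sign ranged from -0.51 to 0.43 (*Ccl3*, WT response), -0.49 to 0.41 (*Ccl4*, *Sh3gl1*-/- response), -0.93 to 0.016, -0.85 to 0.084 and -0.46 to 0.014 (*Ccl3*, *Ccl4* and *Ccl5*, difference in response), -0.67 to 0.22 and -0.28 to 0.45 (*Ccl22* and *Cxcl10*, genotypes after culture) and -0.47 to 0.81, -1.41 to 0.47, -0.70 to 0.31 and -0.18 to 0.49 (*Ccl22*, *Ccl3*, *Ccl4* and *Ccl5*, difference in genotype effect between basal states). That last difference also turned positive under 1 of 8 other alternatives for *Ccl3* (up to 0.13) and for *Ccl4* (up to 0.22). Why these values moved was not tested. *Ccl17* had at most 8 counts in a library. It was tested only in the fits of all genes with at least 1 count, where it was not called.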
